A study of Mus musculus with 9 samples.

Results

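Genes of immature neurons and neuroblasts, 10 in number, were followed through the prelimbic cortex RNA of 9 mice. They were Igfbpl1, Dcx, Sox4, Sox11, Cd24a, Cdca7, Cdca7l, Prokr2, Tshz1 and Stmn1, taken by symbol as 10 of the 55335 lines of the deposited count table, and all 10 were among the 21765 genes with enough counts to be tested. The prelimbic cortex is part of the medial prefrontal cortex, which helps to set how pain is felt. Tissue was taken on day 14 after surgery from 3 groups of 3 mice. The first had sham surgery and saline (called sham below). The second had spared nerve injury (SNI), in which most branches of the sciatic nerve are cut, and saline (called injured saline below). The third had the same injury and R-HNK, the ketamine metabolite hydroxynorketamine, at a dose of 10 mg/kg (called R-HNK mice below). Strain, age and sex, and when R-HNK was given, are not given in the sources used here. The 10 genes were put together with fold changes of these same libraries known, and no threshold on them was recorded. Their levels and fold changes are therefore a description. No p value is given for any of them, and counts of those past a threshold stand beside the share over all genes, with nothing read from them.

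Neuroblasts are young neurons that still migrate. In the adult rodent brain they are born along the lateral ventricle and travel through the rostral migratory stream, which runs beneath the frontal cortex, to the olfactory bulb, where they become interneurons. They carry microtubule proteins for migration, transcription factors that switch on neuronal genes, and cell surface proteins that answer to guidance signals. Several of these genes also stay on at low or high levels in mature neurons, so that in bulk tissue their RNA is not from neuroblasts alone. In such tissue fewer cells of a type and less RNA per cell cannot be told apart.

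Promoter sequences are shown for Sox4 and Sox11, which encode closely related SoxC factors, and for Dcx, since these genes were all lowest in the injured saline mice. The sequences are 300-base windows around the transcription start on GRCm38.p6, credited to RefSeq, whose table had entries for 6 of the 10 genes and 2 starts for Dcx, of which the first is shown. They are written 5′ to 3′ on the strand of the gene. Capitals mark matches on either strand to 6 short motifs, CAGCTG (an E-box of proneural factors), CACGTG (an E-box of Myc), TAATTA (a homeodomain core), ACAAAG (a Sox core), TATAAA (the TATA box) and ATTGG (the CCAAT box), none of which overlapped here.
Sox4 (chr13:28953650-28953949, minus strand): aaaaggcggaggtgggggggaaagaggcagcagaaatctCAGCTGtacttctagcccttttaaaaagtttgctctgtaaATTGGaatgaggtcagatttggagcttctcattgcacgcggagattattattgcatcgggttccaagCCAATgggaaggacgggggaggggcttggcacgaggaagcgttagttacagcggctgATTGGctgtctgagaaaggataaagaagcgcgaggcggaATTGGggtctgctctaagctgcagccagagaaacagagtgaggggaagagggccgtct
Sox11 (chr12:27342669-27342968, minus strand): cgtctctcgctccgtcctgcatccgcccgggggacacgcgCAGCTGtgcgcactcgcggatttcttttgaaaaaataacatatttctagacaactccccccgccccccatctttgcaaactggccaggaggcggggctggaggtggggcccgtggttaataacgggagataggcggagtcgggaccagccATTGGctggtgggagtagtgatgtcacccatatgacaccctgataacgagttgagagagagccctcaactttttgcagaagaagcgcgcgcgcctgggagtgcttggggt
Dcx (chrX:143933170-143933469, minus strand): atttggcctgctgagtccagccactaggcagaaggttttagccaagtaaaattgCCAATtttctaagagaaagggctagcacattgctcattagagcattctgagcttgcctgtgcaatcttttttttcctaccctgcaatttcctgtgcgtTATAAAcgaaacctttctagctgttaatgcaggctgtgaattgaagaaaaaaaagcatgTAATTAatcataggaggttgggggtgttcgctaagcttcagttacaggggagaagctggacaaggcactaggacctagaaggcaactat
The E-box CAGCTG started at base 40 of the Sox4 window and at base 41 of the Sox11 window, and it was also found for Prokr2, against 16.3% of 32851 RefSeq promoters. ATTGG, present in 37.4% of promoters, occurred at bases 80, 147, 204 and 243 of the Sox4 window and at base 191 of the Sox11 window. Dcx held TAATTA at base 212, a match found in 5.29% of promoters. CACGTG, present in 7.15% of promoters, had no match in the windows of these 6 genes. The matches are letters only and were not set against any binding data. The Sox11 window follows the transcript start of RefSeq and lies just upstream of the gene as GENCODE draws it.

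On the GRCm38 (mm10) assembly with the GENCODE M21 annotation, Igfbpl1 (ENSMUSG00000035551.6) lies on chromosome 4 from 45809468 to 45826923 with exons in 5 blocks, and Stmn1 (ENSMUSG00000028832.11) on the same chromosome from 134468320 to 134473843. Dcx (ENSMUSG00000031285.14) lies on the X chromosome from 143855842 to 143933311, in 7 exon blocks. Sox4 (ENSMUSG00000076431.4) on chromosome 13 from 28948919 to 28953713 and Sox11 (ENSMUSG00000063632.6) on chromosome 12 from 27334264 to 27342574 are each a single exon. Cdca7 (ENSMUSG00000055612.15) lies on chromosome 2 from 72476159 to 72486893, as does Prokr2 (ENSMUSG00000050558.13) from 132337733 to 132385447, and Cd24a (ENSMUSG00000047139.9) on chromosome 10 from 43578284 to 43584265. Cdca7l (ENSMUSG00000021175.15) on chromosome 12 from 117804289 to 117878706 overlaps Dnah11, a dynein of cilia, on the opposite strand. Dnah11 had 218, 295 and 104 reads in the sham libraries, 22, 0 and 16 in the injured saline libraries, and 72, 299 and 15 in the R-HNK libraries. Whether reads were counted by strand is not given, so reads of these 2 genes may not be fully parted.

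Total counts ran from 53624337 to 73586375 per library. Levels are given as CPM (read counts scaled to a common library size with TMM factors, which correct for library composition), which does not correct for gene length. The labelled tissue showed its defining markers: Slc17a7, the vesicular glutamate transporter of cortical excitatory neurons, measured 1477 to 2089 CPM in the 9 libraries, and Neurod6 66.2 to 123 CPM. The libraries differed in markers of regions outside the cortex. The 15 listed genes of striatal medium spiny neurons summed to 379 to 1867 CPM after sham surgery, 361 to 388 CPM after injury with saline, and 380 to 1147 CPM after injury with R-HNK. Drd2 and Adora2a, receptors of these neurons, exceeded 10 CPM in 4 libraries and stayed below 3 CPM in the other 5. The 4 were replicates 2 and 3 of the sham mice, and replicates 1 and 3 of those given R-HNK. Of 10 listed genes of the olfactory bulb and anterior olfactory nucleus 9 were tested. They summed to 139 to 292 CPM after sham surgery, 105 to 138 CPM after injury with saline, and 114 to 207 CPM after injury with R-HNK. Eomes, a factor of olfactory bulb projection neurons, showed 10.4, 3.52 and 1.87 CPM over the sham libraries, 2.64, 0.300 and 0.187 CPM after injury with saline, and 1.05, 3.42 and 0.453 CPM after injury with R-HNK. In the edgeR fit with no covariate no listed striatal marker passed in any comparison (10 at an unadjusted p under 0.05 for injury), and Scgn, a calcium-binding protein of olfactory bulb interneurons, was the only gene of the olfactory list to pass, as lower in injured saline mice. Among 10 genes of meningeal and perivascular fibroblasts 3 passed as lower after injury (Col1a1, Igf2 and Fmod), and the 10 summed to between 212 and 364 CPM in sham and between 140 and 190 CPM in injured saline mice. Adarb2 of the interneuron list passed as lower, Neurod6 and Fezf2 of the excitatory list as higher, and no gene of the astrocyte, oligodendrocyte, precursor, microglia, endothelial or blood lists passed in that fit. With the olfactory bulb score described further on as a covariate, 1 striatal, 6 of 8 oligodendrocyte and 2 of 8 precursor genes passed as lower after injury. In that edgeR fit 946 of all 21765 genes passed. Among them were 4 of 10 excitatory genes as higher, 2 interneuron genes as higher and 2 as lower, and 2 fibroblast genes as lower. The blood genes, led by the globins, summed to 357 to 542 CPM after sham surgery, 285 to 403 CPM after injury with saline, and 546 to 724 CPM after injury with R-HNK. The R-HNK libraries were thus above all others in blood genes, with a median log2 fold change of 0.94 against injured saline mice. At an unadjusted p under 0.05 in edgeR there were 5 of 8, against 7.47% of all genes. In the fit of the 5 libraries with little Drd2, 2 of the 8 passed as higher. The part of these tissue differences in the levels below was not tested apart from the settings named beside them.

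**Figure D1:**
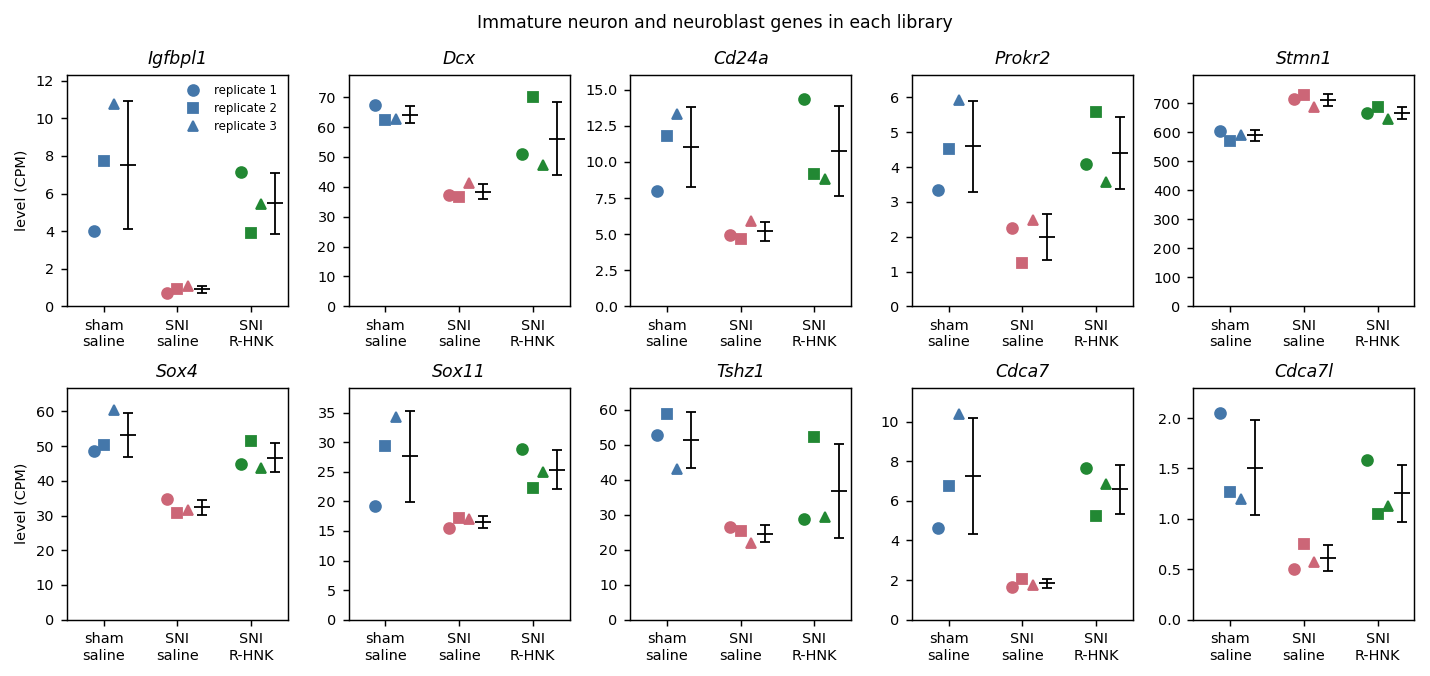
Level of each gene in CPM (vertical axes, from 0) in the 9 libraries, by group, with symbols for replicates 1, 2 and 3 and a bar for mean ± SD (n = 3). The 3 injured saline libraries lie below all 6 others for 9 genes and above all 3 sham libraries for Stmn1.

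Igfbpl1, a secreted or surface protein of the insulin-like growth factor binding family and a marker of new neurons, had the largest difference. It measured 3.98, 7.73 and 10.8 CPM in sham mice, 0.696, 0.916 and 1.09 CPM in injured saline mice, and 7.14, 3.88 and 5.43 CPM in R-HNK mice. In raw counts these were 233, 444 and 593 reads, then 40, 55 and 70 reads, then 529, 251 and 348 reads. Every injured saline library was below every other library, while sham and R-HNK libraries overlapped. The level was 8.29-fold lower in injured saline than in sham mice, a log2 fold change of -3.05 ± 0.37 (SE), and 6.08-fold higher in R-HNK than in injured saline mice (2.60 ± 0.36).

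Dcx encodes doublecortin, the microtubule-associated protein by which migrating neuroblasts are commonly recognised. It measured 67.3, 62.4 and 62.7 CPM after sham surgery, 37.3, 36.5 and 41.3 CPM after injury with saline, and 51.1, 70.1 and 47.2 CPM after injury with R-HNK. The sham libraries were close together, with an SD of 4.29% of the mean, and the R-HNK libraries were not (21.8%), replicate 2 standing above the other two. The log2 fold change was -0.74 ± 0.12 from sham to injured saline mice and 0.55 ± 0.12 from injured saline to R-HNK mice.

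Stmn1 encodes stathmin, which binds free tubulin and takes microtubules apart. It was the most abundant of the 10 genes and did not follow the others. Its level was 606, 571 and 590 CPM after sham surgery, 715, 729 and 687 CPM after injury with saline, and 665, 688 and 646 CPM after injury with R-HNK, with an SD of 2.94% to 3.15% of the mean in each group. Injured saline mice were above sham mice without overlap (0.27 ± 0.06), the opposite direction to the other 9 genes. R-HNK libraries lay above all sham libraries as well, and overlapped those of injured saline mice (-0.09 ± 0.06). In this respect the data go against a single label for the 10 genes.

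The SoxC transcription factors Sox4 and Sox11 act in sequence with proneural factors to switch on neuronal genes. Sox4 measured 48.6, 50.3 and 60.3 CPM after sham surgery, 34.7, 30.6 and 31.7 CPM after injury with saline, and 44.9, 51.5 and 43.7 CPM after injury with R-HNK. Its log2 fold changes were -0.71 ± 0.10 for injury and 0.53 ± 0.10 for R-HNK against injured saline. Sox11 measured 19.2, 29.3 and 34.3 CPM after sham surgery, 15.4, 17.2 and 17.0 CPM after injury with saline, and 28.8, 22.3 and 24.96 CPM after injury with R-HNK. Sham replicate 1 stood only just above the injured saline libraries for Sox11 and clearly above them for Sox4. The Sox11 values were -0.74 ± 0.18 and 0.61 ± 0.18 on the log2 scale. In a fit that left out the 4 libraries with much Drd2 the Sox11 difference from sham to injured saline mice was -0.21, set against sham replicate 1 alone, while that of Sox4 was -0.58.

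Tshz1 encodes a zinc finger factor that olfactory bulb interneurons need for their last migration and maturation. It measured 52.7, 58.7 and 42.9 CPM after sham surgery, 26.5, 25.3 and 21.9 CPM after injury with saline, and 28.8, 52.2 and 29.4 CPM after injury with R-HNK. R-HNK replicate 2 reached the sham level and the other R-HNK libraries lay just above the injured saline ones, so the group's SD was 36.3% of its mean. The log2 fold changes were -1.07 ± 0.24 for injury and 0.58 ± 0.24 for R-HNK against injured saline, the second of which was 0.25 without R-HNK replicate 2.

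Cd24a and Prokr2 sit at the cell surface. Cd24a, a small glycoprotein found on neuroblasts and on ependymal cells, measured 7.999, 11.8 and 13.3 CPM after sham surgery, 4.97, 4.70 and 5.91 CPM after injury with saline, and 14.4, 9.16 and 8.82 CPM after injury with R-HNK. It was 2.12-fold lower after injury (-1.09 ± 0.22) and 2.08-fold higher in R-HNK than in injured saline mice (1.05 ± 0.22). Prokr2 is the receptor of prokineticin 2, a signal that draws neuroblasts into the olfactory bulb. It measured 3.33, 4.51 and 5.93 CPM after sham surgery, 2.24, 1.25 and 2.49 CPM after injury with saline, and 4.08, 5.57 and 3.58 CPM after injury with R-HNK, with log2 fold changes of -1.20 ± 0.29 and 1.14 ± 0.29. For both genes the injured saline libraries were the lowest 3 of the 9. The 9 tested genes of ependyma and choroid plexus, where Cd24a is also found, summed to 14.0 to 25.2 CPM in sham, 9.46 to 9.95 CPM in injured saline and 13.5 to 15.4 CPM in R-HNK mice, and Hydin alone of them passed as lower after injury (4 genes with the olfactory bulb score). Their part in the Cd24a level was not tested. Of the ligands, Prok2 had at most 0.540 CPM in any library and Prok1, with 44 reads over all libraries, was too low to test.

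Cdca7 and Cdca7l encode related zinc finger proteins tied to Myc. Cdca7 works with the chromatin remodeller Hells in the upkeep of DNA methylation and is on in dividing progenitors. It measured 4.62, 6.74 and 10.4 CPM after sham surgery, 1.67, 2.07 and 1.76 CPM after injury with saline, and 7.67, 5.23 and 6.87 CPM after injury with R-HNK. This was the second largest difference after Igfbpl1, 3.96-fold lower after injury (-1.98 ± 0.27) and 3.60-fold higher in R-HNK than in injured saline mice (1.85 ± 0.27). Cdca7l had the fewest reads, between 29 and 120 per library, and measured 2.05, 1.27 and 1.20 CPM after sham surgery, 0.504, 0.750 and 0.575 CPM after injury with saline, and 1.58, 1.05 and 1.12 CPM after injury with R-HNK. Its log2 fold changes were -1.30 ± 0.33 and 1.04 ± 0.33.

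Per kilobase of exon, where levels can be compared between genes, the order in sham mice was led by Stmn1 at 306 ± 9.02 RPKM (CPM per kilobase of exon, mean ± SD, n = 3). Sox4 (11.1 ± 1.32), Tshz1 (8.80 ± 1.37), Dcx (5.07 ± 0.218), Cd24a (4.28 ± 1.06), Sox11 (3.32 ± 0.926), Igfbpl1 (2.31 ± 1.05) and Cdca7 (2.26 ± 0.915) followed on the same scale. Prokr2 (0.580 ± 0.164) and Cdca7l (0.463 ± 0.145) were lowest. Libraries of the neighbours Dcx and Cd24a, Cd24a and Sox11, Sox11 and Igfbpl1, Igfbpl1 and Cdca7, and Prokr2 and Cdca7l overlapped in RPKM. In injured saline mice Igfbpl1 measured 0.277 ± 0.0605 RPKM and Cdca7 0.572 ± 0.0651 RPKM, so that Igfbpl1 lay at the level of Prokr2 (0.252 ± 0.0828 RPKM).

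**Figure D2:**
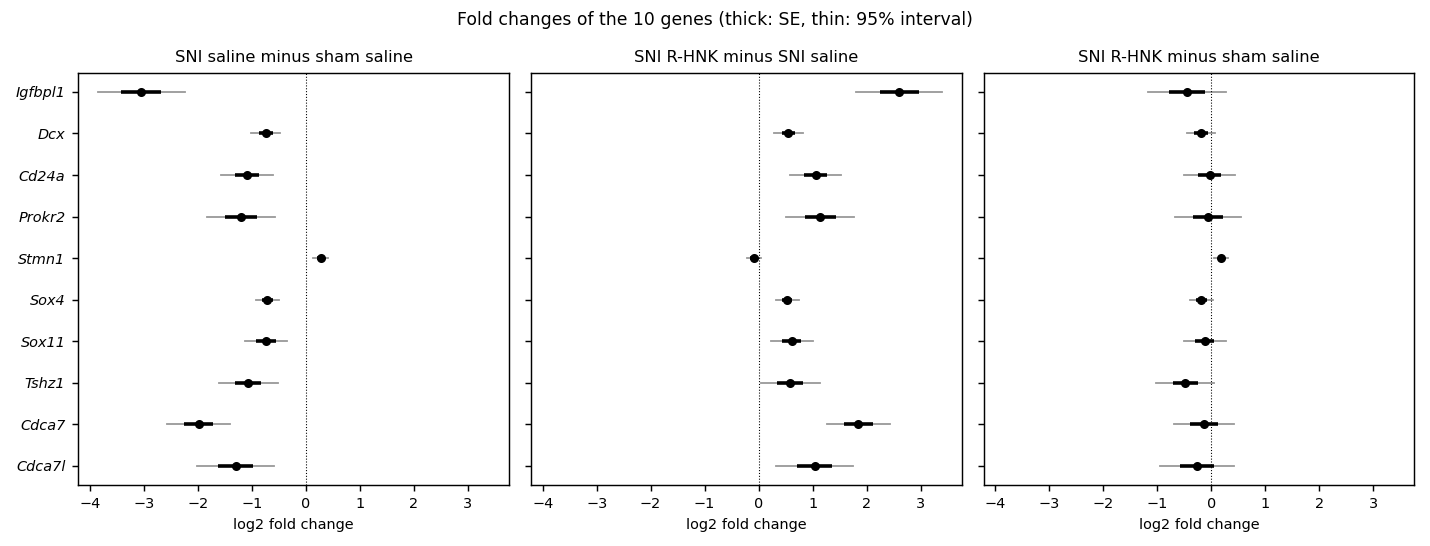
Log2 fold change of each gene (horizontal axes) in the 3 comparisons, with SE as thick bars and the 95% interval as thin bars, from a fit over all 9 libraries. Of the 10 genes 9 lie below 0 for injury and above 0 for R-HNK against injured saline, and Stmn1 lies on the other side in both.

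Read as counts, 5 of the 10 genes passed an adjusted p of 0.05 as lower in injured saline than in sham mice (Igfbpl1, Dcx, Sox4, Cd24a and Cdca7) in edgeR's quasi-likelihood test, against 0.556% of all genes tested called lower, 0.515% called higher and 1.07% called in either direction. All 10 had an unadjusted p under 0.05 (16.6% of all genes). The median log2 fold change was -1.08 over the 10 and -0.016 over all genes tested. The injured saline libraries were below the sham libraries without overlap for 9 of the 10, against 10.9% of all genes tested, and below both other groups for the same 9, against 3.6%. Since the genes were chosen on such values, the counts say nothing further about them. Igfbpl1, Cdca7 and Sox4 passed in each of the 9 fits that left out 1 library, Dcx in 5 and Cd24a in 4. These fits reuse the values that were known when the genes were chosen, so passing in them is no further support. The count of 5, with 233 of all 21765 genes called, was 8 without sham replicate 1, where 1170 of 22540 genes were called. It was 3 without sham replicate 2 (62 of 22553 genes called). It was also 3 without injured saline replicate 1, 2 or 3 (134 of 22642, 63 of 22559 and 60 of 22520 genes called).

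The comparison of R-HNK with injured saline mice asks how these genes differed with the compound after injury. It shares the injured saline libraries with the first, so that a low level there enters both. Igfbpl1 and Cdca7 passed as higher, again a description of genes chosen with these values known, 2 of 10 against 0.0368% of all genes tested, none passed as lower (0.0827%), and 0.119% of all genes passed in either direction. Without overlap, 9 of 10 were higher (7.15% of all genes) and none was below (6.59%). At an unadjusted p under 0.05 there were 9, against 7.47% of all genes. The median log2 fold change was 0.83 over the 10 and 0.0070 over all genes. Of the 8 genes in the whole table that passed as lower after injury and as higher with R-HNK (0.0368% of those tested) Igfbpl1 and Cdca7 were 2. The count of 2, with 26 of all 21765 genes called, was 5 without sham replicate 1 (56 of 22540 called) and 3 without sham replicate 3 (32 of 22544). It was 0 without injured saline replicate 1, 2 or 3 (19 of 22642, 8 of 22559 and 7 of 22520 called). Without R-HNK replicate 1 or 3 it was 0 as well (10 of 22537 and 15 of 22497 called). Over the 9 fits that left out 1 library the log2 fold changes ran within 2.37 to 2.80 for Igfbpl1 and 1.72 to 1.99 for Cdca7.

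Between R-HNK and sham mice none of the 10 genes passed in edgeR, DESeq2 or limma-voom, with 1, 1 and 4 of them at an unadjusted p under 0.05, against 3.53% of all genes tested at that level in edgeR. Of all genes tested 0.00459% passed in edgeR. Without overlap 1 gene, Stmn1, was higher (4.43% of all genes) and none was lower (4.42%). The median log2 fold change of the 10 was -0.16, against -0.0063 over all genes. The 95% interval of the log2 fold change ran from -1.17 to 0.27 for Igfbpl1, from -0.46 to 0.07 for Dcx and from -0.69 to 0.41 for Cdca7. It ran from -1.02 to 0.06 for Tshz1 and from 0.05 to 0.31 for Stmn1, whose R-HNK libraries were all above sham. These intervals leave room for an R-HNK level of Igfbpl1 under that of sham mice, and do not show that the groups are alike.

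**Figure D3:**
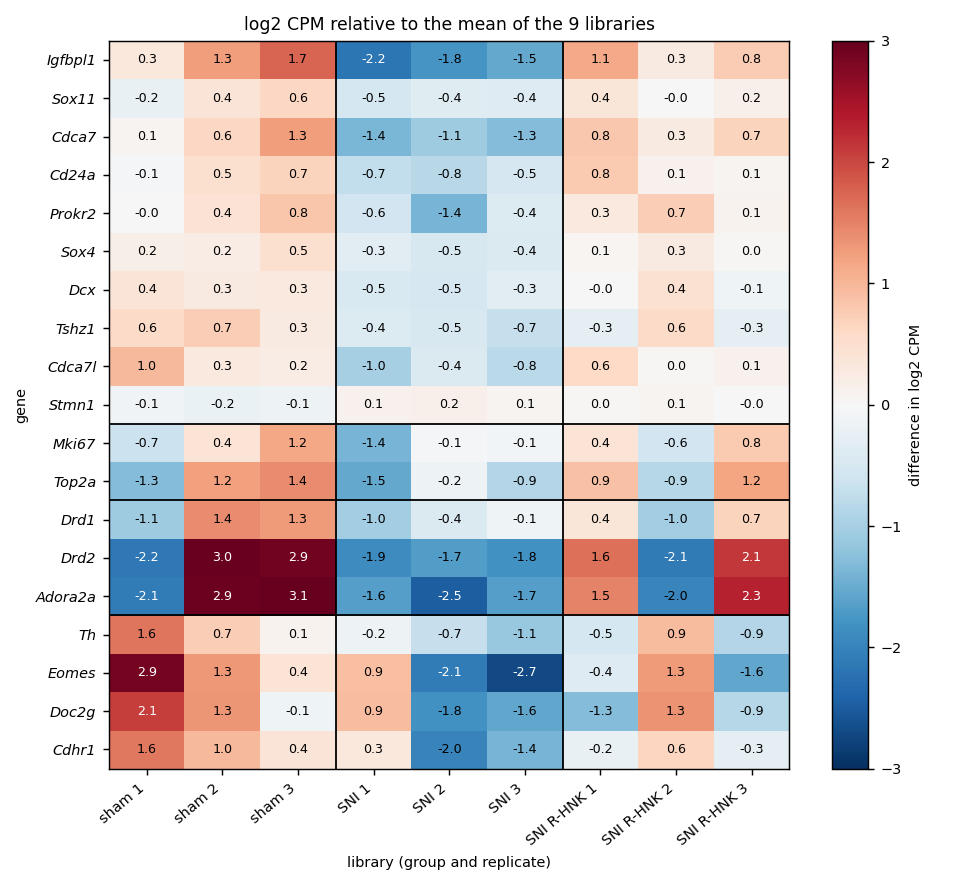
Log2 CPM of each gene (rows) in each library (columns) relative to its mean over the 9 libraries. Below the 10 genes stand the division genes Mki67 and Top2a, the striatal genes Drd1, Drd2 and Adora2a, and the olfactory bulb genes Th, Eomes, Doc2g and Cdhr1. Drd2 and Adora2a stand out in replicates 2 and 3 of the sham mice and in replicates 1 and 3 of the R-HNK mice, while Eomes and Doc2g are highest in sham replicate 1.

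Within the groups the genes did not all move together. After subtracting each group's mean log2 CPM, Igfbpl1 and Sox11 deviated together over the 9 libraries (r = 0.965), as did Sox11 and Cdca7 (0.945), Igfbpl1 and Cdca7 (0.915) and Igfbpl1 and Cd24a (0.861). Dcx and Tshz1 deviated together (0.740), while Igfbpl1 and Tshz1 went opposite ways (-0.628), as did Dcx and Cdca7 (-0.521). The deviations share libraries, and the values are given as a description. In levels, Igfbpl1, Sox11 and Cdca7 were lowest in replicate 1 among sham and in replicate 2 among R-HNK libraries, the 2 libraries of those groups with little Drd2. Top2a, a DNA topoisomerase of dividing cells, was also lowest in those 2 libraries of the groups, with 1.15, 6.81 and 7.71 CPM after sham surgery, 0.974, 2.58 and 1.55 CPM after injury with saline, and 5.35, 1.56 and 6.60 CPM after injury with R-HNK. Among the R-HNK libraries Dcx and Tshz1 were instead highest in replicate 2, the one with the most Eomes and Th.

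The striatal and olfactory bulb marker sums had their highest values outside the injured saline group, so the comparison was repeated with each score (the mean log2 CPM of a marker list) as a covariate. With the striatal score as a covariate the log2 fold change from sham to injured saline mice was -2.18 for Igfbpl1, -1.38 for Cdca7, -0.97 for Dcx, -0.71 for Sox4, -0.68 for Cd24a and -0.29 for Sox11, and 4 of the 10 genes passed, with 91 of all 21765 genes. With the olfactory bulb score it was -3.80, -2.52, -0.54, -0.69, -1.37 and -1.08 in the same order, with -0.61 for Tshz1. There 5 of the 10 passed, with 946 of all 21765 genes, and they were not the same 5: Dcx did not pass and Sox11 did. With both scores it was -2.94 for Igfbpl1, -2.04 for Cdca7, -0.90 for Dcx, -0.63 for Sox4, -0.71 for Cd24a and -0.51 for Sox11. In that fit no gene of the whole table passed in edgeR (1026 at an unadjusted p under 0.05, 5 of them among the 10), with 4 residual degrees of freedom. Among the 5 libraries low in striatal markers, sham replicate 1 had 3.98 CPM of Igfbpl1 and 67.3 CPM of Dcx, R-HNK replicate 2 had 3.88 and 70.1 CPM, and the injured saline libraries had at most 1.09 and 41.3 CPM. A fit of those 5 libraries took the spread from the injured saline libraries alone. There the log2 fold change from sham to injured saline mice was -2.13 for Igfbpl1, -1.33 for Cdca7, -0.80 for Dcx, -1.10 for Tshz1, -0.62 for Cd24a and -0.21 for Sox11. From injured saline to R-HNK mice it was 2.10, 1.51, 0.87, 1.09, 0.82 and 0.43 in the same order. Sham replicate 1 and R-HNK replicate 2 were also the highest of their groups in the olfactory bulb genes. These summed to 292 and 207 CPM there, against 105 to 138 CPM in the injured saline libraries. The part of this olfactory difference in that fit was not tested. The direction from sham to injured saline mice was the same for all 10 genes in these fits.

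The genes most like a member were sought by Pearson correlation of log2 CPM over the 9 libraries, among 13694 genes, with no test, since the groups themselves set much of the pattern. Igfbpl1 was most like Pcdhgb5, a clustered protocadherin (r = 0.989), Atf7ip (0.981), Thumpd1 (0.970), Prdm12 (0.968) and Sox1 (0.965). Pcdhgb5 measured 8.61 ± 1.17, 4.02 ± 0.466 and 8.23 ± 0.580 CPM (mean ± SD, n = 3) in sham, injured saline and R-HNK mice. Thumpd1 followed the same order over a narrow range, from 45.5 ± 0.196 CPM in injured saline to 49.0 ± 0.692 CPM in sham mice, so likeness in pattern is not likeness in size. Dcx was most like Isoc1 (0.973), Heyl (0.969), Pcdh20 (0.962), Zfp945 (0.955) and Map3k1 (0.949). Sox11 was most like Rps6ka6 (0.983), Pxmp2 (0.974), Mycl (0.970), Rps6ka5 (0.970) and Vcan (0.967).

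Other genes of neuroblasts were followed in 6 lists, written from general knowledge of the field with the results of part of these genes already known. Their counts and p values are therefore a description, and are no independent support for the pattern of the 10 genes. In the list of transcription factors of neuroblasts and new interneurons 12 of 25 fell in injured saline mice (edgeR, adjusted p under 0.05). Of all genes tested 0.556% were called lower. None of the 25 rose and 13 did not pass, with a median log2 fold change of -0.33. The 12 were Sp8, Sp9, Dlx1, Dlx2, Dlx5, Dlx6, Pax6, Meis1, Meis2, Zic1, Zic2 and Sall3. In R-HNK against injured saline mice 4 of the 25 rose, Sp9, Dlx1, Dlx2 and Pax6, against 0.0368% of all genes tested. The other 21 did not pass (median 0.32 over the 25). None of the 25 passed between R-HNK and sham mice in edgeR, with 5 at an unadjusted p under 0.05 (3.53% of all genes).

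Sp9, a zinc finger factor needed for new interneurons, measured 16.0, 20.1 and 21.3 CPM after sham surgery, 6.17, 7.46 and 7.69 CPM after injury with saline, and 14.7, 18.1 and 14.8 CPM after injury with R-HNK. It fell by 1.43 ± 0.14 on the log2 scale (adjusted p = 0.000421) and rose by 1.16 ± 0.14 with R-HNK (adjusted p = 0.00622). Dlx2, a homeodomain factor of interneuron progenitors, measured 12.9, 17.3 and 18.9 CPM after sham surgery, 6.19, 7.85 and 5.70 CPM after injury with saline, and 13.3, 13.9 and 11.6 CPM after injury with R-HNK (-1.31 ± 0.16, adjusted p = 0.00218, and 0.98 ± 0.16, adjusted p = 0.0402). Pax6, a paired-box factor of progenitors and of dopaminergic bulb interneurons, measured 14.5, 15.2 and 16.3 CPM after sham surgery, 8.59, 7.36 and 7.01 CPM after injury with saline, and 13.1, 11.2 and 14.0 CPM after injury with R-HNK (-1.005 ± 0.12, adjusted p = 0.00218, and 0.74 ± 0.12, adjusted p = 0.0406). For these 3 genes the injured saline libraries lay below all others. With the striatal score as a covariate all 3 passed for injury in edgeR. For R-HNK against injured saline Sp9 passed in that fit and Dlx2 and Pax6 did not (adjusted p = 0.0117, 0.0901 and 0.148 in edgeR). The fit of the 5 libraries low in striatal markers had 1 sham and 1 R-HNK library, so only its log2 fold changes are given. For Sp9, Dlx2 and Pax6 in turn they were -1.16, -0.96 and -0.92 for injury. For R-HNK against injured saline they were 1.35, 1.079 and 0.55. Neurod1, a factor of young excitatory neurons, measured 9.86 ± 0.553, 10.7 ± 0.949 and 12.4 ± 0.527 CPM (0.12 ± 0.11 for injury, adjusted p = 0.638). The count of 12 was 5 with the striatal score, 11 with the olfactory bulb score, 0 with both (6 at an unadjusted p under 0.05) and 3 without the 4 libraries. Leaving out single libraries gave 5 and 7 for replicates 2 and 3 of the sham mice, and 7, 5 and 4 for the injured saline mice in turn. It gave 7 when R-HNK replicate 1 was left out. The count of 4 was 2 without sham replicate 2 or R-HNK replicate 3 and 1 without injured saline replicate 2 or 3 or R-HNK replicate 1, and it was 1 with the replicate number as a block.

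**Figure D4:**
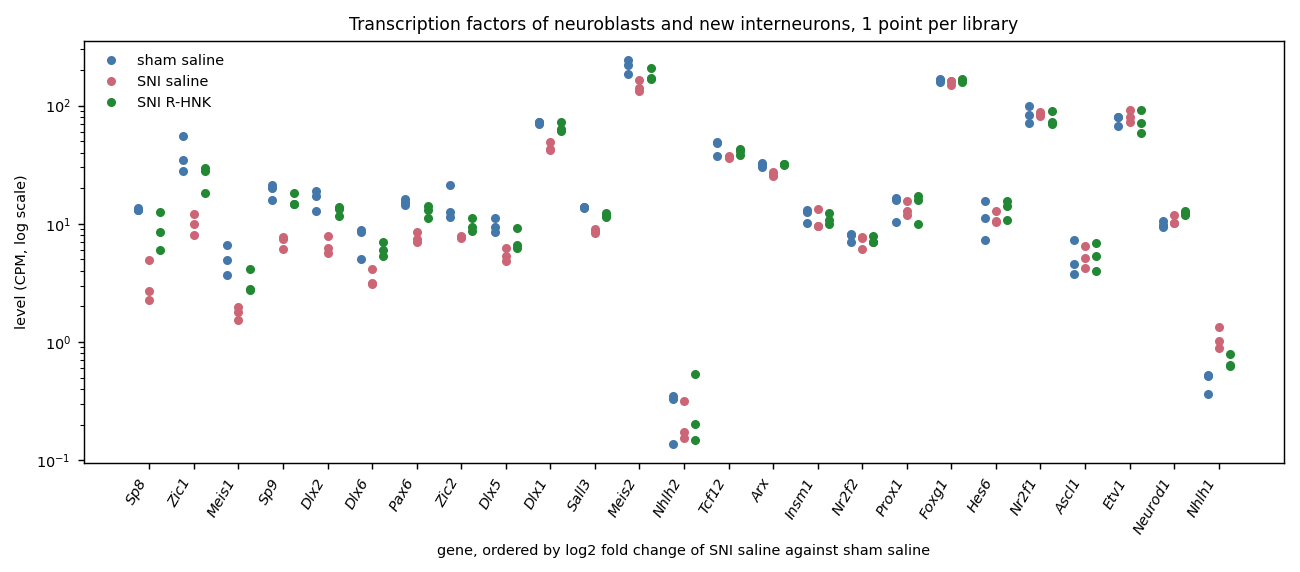
Level in CPM (vertical, log scale) of 25 transcription factors of neuroblasts and new interneurons, 1 point per library and 1 colour per group, ordered from the lowest to the highest log2 fold change of injured saline against sham mice. The 12 genes that passed stand at the left, with the injured saline points under the sham points.

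Cytoskeletal genes of migration mostly did not pass. Of 30 tested Dclk2, a doublecortin-like kinase, fell from 120 ± 2.68 to 91.1 ± 4.25 CPM (-0.40 ± 0.06, adjusted p = 0.00901) and 29 did not pass. Of the 30, 18 were above and 12 below 0 (median 0.08), and 14 had an unadjusted p under 0.05 (16.6% of all genes). Tubb3, the neuronal tubulin, measured 424, 373 and 355 CPM after sham surgery, 441, 452 and 432 CPM after injury with saline, and 399, 435 and 370 CPM after injury with R-HNK (0.20 ± 0.08, adjusted p = 0.229). Stmn3 of the stathmin family measured 434 ± 28.8 and 536 ± 30.1 CPM (0.30 ± 0.08, adjusted p = 0.0797), the same direction as Stmn1. Of 26 tested guidance and chemoattraction genes 25 did not pass (median -0.13). Reln, a secreted guide of migrating neurons, fell from 103 ± 7.003 to 72.8 ± 8.77 CPM (-0.50 ± 0.09, adjusted p = 0.0254 in edgeR). At an unadjusted p under 0.05 in edgeR 8 of the 26 were lower and 4 were higher, against 16.6% of all genes. None of these 56 genes passed in R-HNK against injured saline mice in edgeR with no covariate. At an unadjusted p under 0.05 there were 6 and 4, against 7.47% of all genes. Dclk2 and Reln did not pass in the fit of those 5 libraries low in striatal markers or with the striatal score (adjusted p = 0.284 and 0.0592 for Dclk2, 0.123 and 0.115 for Reln in edgeR).

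Among 18 genes of neural stem cells and progenitors Sox1, a SoxB1 factor, fell from 25.7 ± 7.69 to 12.9 ± 1.34 CPM and measured 22.2 ± 1.56 CPM in R-HNK mice (-1.001 ± 0.18, adjusted p = 0.0296, for injury). The other 17 did not pass, and 15 of the 18 were below 0 (median -0.41). At an unadjusted p under 0.05 in edgeR 12 of the 18 were lower and 1 was higher, against 16.6% of all genes. That progenitor median was -0.18 with the striatal score, -0.57 with the olfactory bulb score and -0.16 with both. It was -0.10 in the fit of the 5 libraries low in striatal markers. Of 25 genes of DNA replication and division none passed in edgeR for injury, with 8 at an unadjusted p under 0.05 (16.6% of all genes). Of these 25, 20 were below 0 (median -0.46). This median was -0.0001 with the striatal score and 0.020 in the fit of the 5 libraries low in striatal markers, and 8 genes passed as lower with the olfactory bulb score. Hmgb2, a chromatin protein of dividing cells, measured 4.07, 4.65 and 9.13 CPM after sham surgery, 2.21, 2.15 and 1.97 CPM after injury with saline, and 7.79, 2.40 and 6.54 CPM after injury with R-HNK (-1.49 ± 0.43, adjusted p = 0.132). Among 16 tested relatives of the 10 genes Dclk2 fell, as given above, and 14 did not pass. Igfbp4, a binding protein of insulin-like growth factors, rose from 81.8 ± 7.98 to 111 ± 4.99 CPM (0.45 ± 0.08, adjusted p = 0.0267 in edgeR). At an unadjusted p under 0.05 in edgeR 7 of the 16 were higher and 5 were lower, against 16.6% of all genes. Igfbp4 and Sox1 did not pass with the striatal score (adjusted p = 0.282 and 0.211 in edgeR) or in the fit of the 5 libraries (adjusted p = 0.462 and 0.458 in edgeR). None of the progenitor, division or related genes passed in R-HNK against injured saline mice in edgeR with no covariate. At an unadjusted p under 0.05 there were 6, 6 and 5, against 7.47% of all genes. With the olfactory bulb score 2 progenitor, 1 division and 1 related gene passed as higher in that comparison.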

How the data were processed

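Bulk RNA from the prelimbic cortex of 9 separate mice was sequenced, 3 per group. The submitters' processing notes name HISAT2 2.0.5, mm10 and featureCounts 1.5.0-p3, while the table names StringTie in its own title. The deposited values are expected counts (estimated read counts per gene symbol), whole numbers with no normalization by the authors, and were used as whole numbers. Strand and read pair settings: not given in the sources used here. Library totals of 53624337 to 73586375 counts per library put all 10 genes at 29 reads or more.

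Genes were kept by filterByExpr (21765, with 99.96% of the counts), scaled by TMM and fitted over all 9 libraries in edgeR 4.0.16 (R 4.3.3) by the robust quasi-likelihood test, 1 mean per group, with Benjamini-Hochberg adjustment over all genes and a threshold of 0.05. SE were worked back from the test statistic. With 3 mice against 3 an exact permutation test of a single gene cannot go below 0.1. The members and lists were chosen with earlier results of these data known. Genes were named by rule: the 10 members, list genes that passed or had the smallest p, the first genes of marker lists, and the 5 genes most correlated with Igfbpl1, Dcx and Sox11. Genes named outside it to show a pattern were chosen after their values were seen. They were Mki67, Top2a, Prok2, Tubb3 and the less significant of the 12 transcription factors. From the marker lists they were Scgn, Doc2g, Cdhr1, Adarb2, Fezf2, Igf2, Fmod and Hydin. Other settings were DESeq2 1.42.0, limma-voom (limma 3.58.1), other scalings and filters, replicate number as a block, 2 groups alone and leaving out each library. Added after seeing the data were the marker scores as covariates and a fit of the 5 libraries with little Drd2. The fit was tested on simulated counts. RPKM use GENCODE M21 exon lengths.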

Additional observations from a re-analysis of the deposited data

How the results depend on the processing

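Of 21 other settings, relative log expression and upper quartile scaling left all 30 fold changes of the 10 genes (3 comparisons each) on their side of the threshold and in their direction. For injury, the count of 5 called among the 10 was 10 with DESeq2, 9 with limma-voom, 3 without the 4 libraries raised in striatal markers and 0 with both marker scores (5 at an unadjusted p under 0.05). The 233 genes called in all became 370 with no filter, 1185 with DESeq2, 1051 with limma-voom, 91 with the striatal score, 946 with the olfactory bulb score, 0 with both scores and 79 without the 4 libraries. For R-HNK against injured saline mice, the count of 2 was 6 with DESeq2, 1 with limma-voom, 4 with the olfactory bulb score and 0 with both scores (7 at an unadjusted p under 0.05). The 26 genes called in all became 140 with DESeq2, 46 with limma-voom, 53 with the 2 groups alone, 80 with the olfactory bulb score and 0 with both (935 at an unadjusted p under 0.05). For R-HNK against sham mice, the 1 gene called became 0 when only genes at 0 or more in mean log2 CPM were tested. It became 10 with DESeq2 and 0 with limma-voom. Without the 4 libraries 1 sham and 1 R-HNK library were left, and the spread came from the injured saline libraries alone. The counts given here for that fit therefore rest on 1 mouse in each of those groups. Of the transcription factors, the 12 called lower for injury became 5 with the striatal score, 0 with both scores and 3 without the 4 libraries, and the 4 called higher with R-HNK became 7 with DESeq2, 2 with the striatal score, 0 with both scores (9 at an unadjusted p under 0.05) and 1 without the 4 libraries. The cause of these moves was not tested.

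The replicate numbers pair nothing in the labels, and same-numbered libraries had correlations of deviations from -0.167 to 0.234. With the replicate number as a block 162, 16 and 2 genes passed in the 3 comparisons, 5, 1 and 0 of them among the 10, and 8 and 1 of the transcription factors. Leaving out 1 library at a time gave 60 to 1170, 7 to 56 and 1 to 11 genes in the 3 comparisons, 3 to 8, 0 to 5 and 0 to 0 of the 10, and 4 to 13 and 1 to 4 transcription factors.

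Signs over the settings were followed for the 10 genes and for genes of the 6 lists that passed for injury. For those list genes R-HNK against sham mice was not followed. Meis2 turned to 0.051 for injury with both scores, and the other changes of sign were among the 10 genes, between R-HNK and sham mice. Medians of lists turned too, among others that of the division genes to 0.020 for injury and to -0.11 for R-HNK against injured saline mice without the 4 libraries, and that of the relatives of the 10 genes to -0.056 for injury with both scores. Between R-HNK and sham mice Cd24a turned to 0.016 with limma-voom. With the striatal score Sox11, Cd24a and Cdca7 turned to 0.037, 0.11 and 0.074, and with both scores Cd24a and Prokr2 to 0.10 and 0.19. Without the 4 libraries 1 sham and 1 R-HNK library were left. There Dcx, Sox4, Sox11, Cd24a, Cdca7 and Prokr2 turned to 0.064, 0.088, 0.22, 0.20, 0.19 and 0.75, a comparison of 1 mouse with 1 mouse. With 1 library left out the values ran from -0.465 to 0.029 for Cdca7l, -0.29 to 0.13 for Cd24a, -0.32 to 0.068 for Sox11, -0.37 to 0.22 for Cdca7 and -0.26 to 0.17 for Prokr2. Depth limits Cdca7l most, at 29 to 120 reads per library.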
